A study of Homo sapiens with 16 samples.

Results

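MINA and C14orf169 encode the 2 JmjC ribosomal oxygenases, and these 2 genes, of 23669 in the count table, are described here across 4 lines of HCT116 cells in hypoxia and normoxia. MINA is now named RIOX2, and C14orf169, whose protein is also called NO66, is now named RIOX1. The members were chosen by name, with earlier results of these data known: the hypoxia response of MINA in shNT cells and that of C14orf169 in HIF1A-null cells. Every comparison of a gene that uses libraries of the line it was chosen on is therefore given as a description, with no p-value. Both genes passed the filter on low counts, as did 15520 genes in all.

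HCT116 is an established human colorectal carcinoma line. Cells of each line were kept for 24 h at 1% oxygen (hypoxia) or at an ambient 21% (normoxia). In 3 lines an shRNA was stably expressed: the shTIP60 line targets TIP60 (gene KAT5), which acetylates histones, the shCDK8 line targets CDK8, a Mediator-associated kinase, and the shNT line carries a non-targeting control. In the other line, HIF1A-/-, called HIF1A-null below, the gene of the oxygen-sensitive HIF1 subunit HIF1A was deleted. Each of the 8 groups had 2 libraries of poly(A) RNA, described by the submitters as independent biological replicates, and they are called library A and library B here. The shNT line carries an shRNA and the HIF1A-null line is labelled with none, so deletion and absence of an shRNA cannot be told apart. Whether a line was 1 clone or a pool is not given in the sources used here.

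MINA and NO66 belong to the 2-oxoglutarate oxygenases with a JmjC fold, enzymes that consume molecular oxygen and need iron. In human cells each hydroxylates a histidine of a protein of the large ribosomal subunit, RPL27A for MINA and RPL8 for NO66, and both proteins are found in the nucleolus. MINA is known as a gene induced by MYC, and NO66 has also been described as a histone demethylase that meets Polycomb proteins through PHF19.

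Total counts ran from 26620086 to 39401494 per library, and 3 counts corresponded to 0.0716 to 0.112 CPM, the count of a gene relative to its library's total, scaled with trimmed-mean (TMM) factors. The knocked-down genes were low in their lines: CDK8 fell to a mean of 5.64 CPM in shCDK8 cells in hypoxia, against 28.1 CPM in shNT cells, and KAT5 fell to 21.5 CPM in shTIP60 cells, against 90.5 CPM. HIF1A RNA was lower but still counted in the HIF1A-null line, at 48.9 CPM in hypoxia against 65.9 CPM in shNT cells, and at 13.6 CPM in normoxia against 107.5 CPM. Of 6 genes known to be induced by hypoxia, 6 rose in shTIP60, shCDK8 and shNT cells, and in HIF1A-null cells 5 rose and EGLN3 fell. Among all genes tested, 19.4%, 13.8% and 20.7% were called higher (edgeR adjusted p below 0.05) in shTIP60, shCDK8 and shNT cells. In HIF1A-null cells 18.9% were called higher and 19.1% lower. Of the markers of epithelium, EPCAM was at 129 to 215 CPM and CDX2 at 6.27 to 30.6 CPM over the libraries, while PTPRC, CD3E, PECAM1 and COL3A1 stayed at or under 0.184 CPM. HBB and ALB were at 1.60 CPM or less, and COL1A1, a fibroblast collagen gene, was counted in all libraries, at 21.5 to 81.9 CPM. COL1A1 rose in hypoxia in every line, by 0.54 ± 0.14 in HIF1A-null cells up to 1.22 ± 0.14 in shNT cells on the log2 scale. The scaling factors of hypoxia libraries, 0.862 to 0.965, lay below those of normoxia libraries, 1.01 to 1.12. The part of either in the results for MINA and C14orf169 was not tested.

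On the human build GRCh37, with GENCODE release 44 lifted to it, MINA lay on the minus strand of chromosome 3, from 97660662 to 97691301, with 9 transcripts and 10 exons in the canonical one. C14orf169 lay on the plus strand of chromosome 14, from 73957638 to 73960098, with 1 transcript of 1 exon, 2461 bases long. Its locus sits within HEATR4 on the opposite strand, with 84 shared exon bases, and HEATR4 had 0 to 3 counts in each library. MINA shares 1919 exon bases at its 3' end with CRYBG3, which lies on the opposite strand. The strand setting of the counting is not given in the sources used here, so reads of these shared stretches cannot be assigned with certainty. CRYBG3 rose in hypoxia in shTIP60 (log2 fold change 0.67 ± 0.14, SE), shCDK8 (0.70 ± 0.14) and shNT cells (0.75 ± 0.14) and stood at -0.30 ± 0.14 in HIF1A-null cells, where it was not called by edgeR.

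MINA RNA was lower in hypoxia than in normoxia in all 4 lines. In shTIP60 cells it had 27.9 and 29.3 CPM in hypoxia (libraries A and B), against 46.8 and 49.9 CPM in normoxia. In shCDK8 cells MINA had 40.6 and 36.3 CPM in hypoxia, against 65.3 and 69.4 CPM in normoxia. In HIF1A-null cells MINA had 31.3 and 28.3 CPM in hypoxia, against 41.1 and 39.6 CPM in normoxia. In shNT cells MINA had 22.5 and 23.4 CPM in hypoxia, against 52.9 and 49.6 CPM in normoxia. In each line both hypoxia libraries lay below both normoxia libraries. Of all genes tested, 40.2% in shTIP60, 30.6% in shCDK8, 31.7% in HIF1A-null and 34.9% in shNT cells had their libraries apart in this direction, so with 2 libraries a group the gap by itself is common. The smallest gap between the conditions was in HIF1A-null cells, where the hypoxia mean was 73.9% of the normoxia mean, against 59.3% in shTIP60, 57.0% in shCDK8 and 44.7% in shNT cells. In bulk RNA, fewer cells with the transcript and less of it per cell cannot be told apart.

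C14orf169 RNA was scarcer and its levels differed more between conditions. In shTIP60 cells it had 1.54 and 1.19 CPM in hypoxia (50 and 39 counts), against 8.03 and 7.43 CPM in normoxia (262 counts in each library). In shCDK8 cells C14orf169 had 3.94 and 3.92 CPM in hypoxia (146 and 139 counts), against 11.8 and 11.0 CPM in normoxia (328 and 375 counts). The shCDK8 libraries had the most C14orf169 RNA of the 4 lines under each condition. In HIF1A-null cells C14orf169 had 0.186 and 0.292 CPM in hypoxia, from 5 and 9 counts, against 5.53 and 6.11 CPM in normoxia, from 219 and 244 counts. The exact 95% Poisson intervals of the 2 hypoxia values, which cover counting error only, were 0.0604 to 0.434 CPM and 0.134 to 0.555 CPM. In shNT cells C14orf169 had 1.48 and 1.92 CPM in hypoxia (43 and 58 counts), against 9.98 and 8.93 CPM in normoxia (324 and 374 counts). As for MINA, the hypoxia and normoxia libraries did not overlap in any line, which by itself was common among all genes. The highest hypoxia value of C14orf169 over all lines (3.94 CPM) lay below its lowest normoxia value (5.53 CPM). The latter is from HIF1A-null cells, the line this gene was chosen on. How many of all genes are apart in this way over all lines was not counted. For MINA the ranges over all lines met: its highest hypoxia value, 40.6 CPM in shCDK8 cells, exceeded its lowest normoxia value, 39.6 CPM in HIF1A-null cells.

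**Figure D1:**
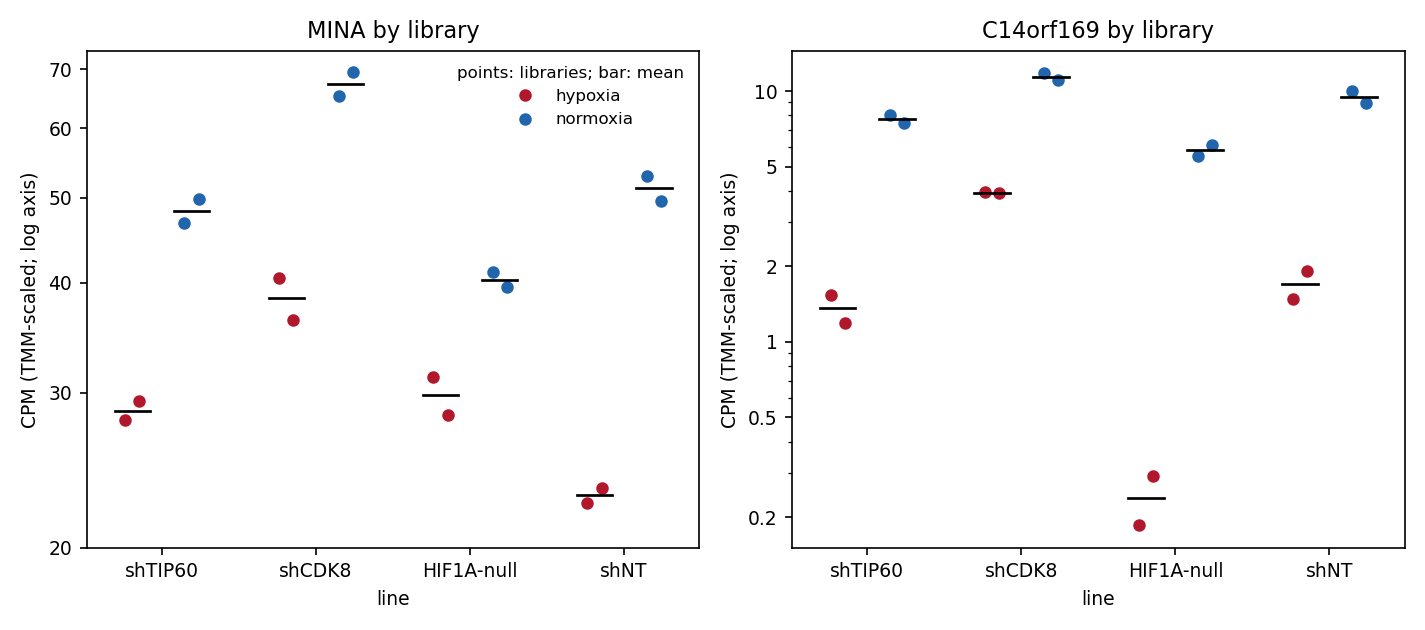
CPM of MINA and C14orf169 in each of the 16 libraries (log axis), by line and condition; points are libraries and bars are the means of 2. The hypoxia points lie below the normoxia points in every line, and the HIF1A-null hypoxia points of C14orf169 lie lowest, at 0.186 and 0.292 CPM.

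Both genes had adjusted p below 0.05 in each comparison of hypoxia with normoxia in which they were tested. In shTIP60 cells MINA fell by 0.75 ± 0.12 on the log2 scale (SE, adjusted p = 1.44e-04 by edgeR's quasi-likelihood test with Benjamini-Hochberg adjustment) and C14orf169 fell by 2.50 ± 0.21 (adjusted p = 3.81e-07), where 19.8% of all genes tested were called lower. In shCDK8 cells MINA fell by 0.81 ± 0.12 (edgeR adjusted p = 1.70e-04) and C14orf169 fell by 1.53 ± 0.19 (adjusted p = 3.72e-05), where 11.0% of genes were called lower. MINA fell in HIF1A-null cells too, by 0.44 ± 0.12 (edgeR adjusted p = 0.00895, 19.1% of genes called lower). This call was lost when HIF1A-null hypoxia library B was left out (log2 fold change -0.37, adjusted p = 0.0784) and when the 2 groups were fitted alone (-0.44, adjusted p = 0.127). C14orf169 fell in shNT cells by 2.47 ± 0.21 (edgeR adjusted p = 3.54e-07, 20.0% of genes called lower). The values that chose the members were log2 fold changes of -1.16 ± 0.12 for MINA in shNT cells and -4.57 ± 0.28 for C14orf169 in HIF1A-null cells, with no test. The SE of this C14orf169 value was derived from the test statistic and understates the error at its low counts in HIF1A-null hypoxia.

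Set among the fold changes of all 15520 genes, C14orf169 stood far towards the low end: 0.354% of genes had a lower value in shTIP60 cells, 1.24% in shCDK8 cells and 0.625% in shNT cells. MINA stood less far out, with 12.6% of genes lower in shTIP60 cells, 6.37% in shCDK8 cells and 26.5% in HIF1A-null cells. The median of all genes was between -0.02 and -0.00 in these comparisons. Scaling by library totals in place of TMM factors moved that median to -0.23 in shTIP60, -0.16 in shCDK8, -0.28 in HIF1A-null and -0.20 in shNT cells, and no value of either gene changed sign with it. Changes are therefore relative to the median of all genes under TMM scaling.

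The lines kept a similar order for both genes in normoxia, from shCDK8 through shNT and shTIP60 to HIF1A-null. Mean MINA RNA in normoxia was 48.3 ± 2.19 CPM in shTIP60, 67.3 ± 2.95 CPM in shCDK8, 40.3 ± 1.09 CPM in HIF1A-null and 51.3 ± 2.38 CPM in shNT cells (SD, n = 2 each). The libraries of shTIP60 and shNT cells overlapped there. In hypoxia the MINA order was different, with 28.6 ± 0.979 CPM in shTIP60, 38.4 ± 3.03 CPM in shCDK8, 29.8 ± 2.12 CPM in HIF1A-null and 22.9 ± 0.626 CPM in shNT cells (SD, n = 2 each). Of these, the libraries of HIF1A-null and shTIP60 cells overlapped, and both shNT libraries, on whose line MINA was chosen, were below those of the other lines. Over all 8 groups, shCDK8 cells in hypoxia and HIF1A-null cells in normoxia were the other neighbours that overlapped.

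Mean C14orf169 RNA in normoxia was 7.73 ± 0.422 CPM in shTIP60, 11.4 ± 0.505 CPM in shCDK8, 5.82 ± 0.413 CPM in HIF1A-null and 9.45 ± 0.740 CPM in shNT cells (SD, n = 2 each). No neighbours in this order overlapped, and how many of all genes have lines apart in this way was not counted. In hypoxia it was 1.36 ± 0.247 CPM in shTIP60, 3.93 ± 0.0149 CPM in shCDK8, 0.239 ± 0.0752 CPM in HIF1A-null and 1.70 ± 0.307 CPM in shNT cells (SD, n = 2 each). The shNT and shTIP60 libraries overlapped in hypoxia, and the order was otherwise that of normoxia.

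In hypoxia, C14orf169 RNA was higher in the cells with the shRNA against CDK8 than in control cells. C14orf169 was higher in shCDK8 than in shNT cells in hypoxia by 1.21 ± 0.21 on the log2 scale (edgeR adjusted p = 6.49e-04), where 14.4% of genes were called higher. In normoxia the same comparison gave 0.27 ± 0.18 and was not called (edgeR adjusted p = 0.382), where 13.1% of genes were called in either direction. With knockdown of TIP60, C14orf169 differed from shNT by -0.32 ± 0.23 in hypoxia (edgeR adjusted p = 0.358) and by -0.29 ± 0.18 in normoxia (adjusted p = 0.311), and neither passed the test, where 21.8% and 18.4% of genes were called. These comparisons share the shNT libraries. As a description, C14orf169 in HIF1A-null cells differed from shNT by -2.80 ± 0.32 in hypoxia and by -0.70 ± 0.18 in normoxia. The SE in hypoxia understates the error, as C14orf169 counts in HIF1A-null cells were low there. For MINA, which was described only against shNT, the difference was 0.32 ± 0.12 in hypoxia and -0.09 ± 0.12 in normoxia for shTIP60 cells, 0.74 ± 0.12 and 0.39 ± 0.12 for shCDK8 cells, and 0.38 ± 0.12 and -0.35 ± 0.12 for HIF1A-null cells, in the same order of conditions. MINA in HIF1A-null cells lay above shNT in hypoxia and below it in normoxia. Since MINA was chosen with its shNT hypoxia response known, this crossing is no independent result.

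Whether a line changed the size of the hypoxia response was asked from the difference between responses. The C14orf169 response in shCDK8 cells differed from that in shNT cells by 0.94 ± 0.28 on the log2 scale (95% interval 0.29 to 1.58) and from that in shTIP60 cells by 0.97 ± 0.28 (0.31 to 1.62). Neither passed the adjustment over all genes (edgeR adjusted p = 0.228 and 0.246), where 0.0387% of genes were called in each. The responses of C14orf169 in shTIP60 and shNT cells differed by -0.03 ± 0.29 (95% interval -0.71 to 0.64, edgeR adjusted p = 1.00), where 0.0322% of genes were called. The MINA response in HIF1A-null cells was smaller than in shTIP60 cells by 0.32 ± 0.17 (95% interval -0.07 to 0.70, edgeR adjusted p = 0.225, 14.6% of genes called). It was smaller than in shCDK8 cells by 0.37 ± 0.17 (-0.01 to 0.76, edgeR adjusted p = 0.165, 11.6% of genes called). Neither of these MINA differences passed. The responses of MINA in shCDK8 and shTIP60 cells differed by -0.06 ± 0.17 (-0.44 to 0.33, edgeR adjusted p = 0.943).

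The remaining differences between responses are descriptions. MINA's response in HIF1A-null cells was less negative than in shNT cells by 0.72 ± 0.17, and C14orf169's was more negative, at -2.10 ± 0.38 against shNT, -2.06 ± 0.38 against shTIP60 and -3.03 ± 0.36 against shCDK8 cells. The C14orf169 values rest on 14 counts over the 2 HIF1A-null hypoxia libraries, and leaving out either library moved the value against shNT between -2.47 and -1.83. At counts this low the SE of these C14orf169 values understate the error.

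Per kilobase of exon, MINA RNA was above C14orf169 RNA in every group, and by more in hypoxia. The ratio of MINA to C14orf169 CPM per kilobase was 7.53 in hypoxia and 2.24 in normoxia in shTIP60 cells. In shCDK8 cells the ratio was 3.49 in hypoxia and 2.11 in normoxia. In HIF1A-null cells it was 44.6 in hypoxia and 2.48 in normoxia, and in shNT cells 4.82 and 1.94. With the length of the canonical transcript in place of all exons joined, the normoxia ratios were 2.75 to 3.51 and the hypoxia ratios 4.95 to 63.2. The HIF1A-null hypoxia ratios, 44.6 and 63.2, divide by C14orf169 at a mean of 0.239 CPM, in libraries it was chosen on. The shNT ratios use libraries that MINA was chosen on. Of MINA's 6880 exon bases, 1919 are shared with CRYBG3, and the part of its reads in these ratios was not tested. Across the 8 group means of log2 CPM the 2 genes had a Pearson r of 0.79, given as a description since the groups share lines and conditions. They also include the groups whose values chose the genes.

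C14orf169 consists of a single exon, and in shTIP60, shCDK8 and shNT cells few other intronless genes had a lower fold change in hypoxia. Of 276 single-exon protein-coding genes tested, 3 in shTIP60, 4 in shCDK8 and 4 in shNT cells had a lower fold change than C14orf169. Its value in HIF1A-null cells chose the gene and is not ranked here. Their median log2 fold change was -0.17 in shTIP60, -0.08 in shCDK8, -0.29 in HIF1A-null and -0.12 in shNT cells. The medians of 13477 protein-coding genes with introns were -0.03, -0.00, -0.01 and -0.01 in the same lines. In HIF1A-null cells 31.2% of the single-exon protein-coding genes were called lower and 13.8% higher, against 19.4% and 18.9% of those with introns. In shCDK8 cells the shares of single-exon genes were 7.25% lower and 6.88% higher, against 11.8% and 14.5% of genes with introns. The quartiles of their log2 fold changes there were -0.46 and 0.31, against -0.32 and 0.35. Fewer calls thus did not go with a narrower spread, and the part of count level in these shares was not tested. With noncoding genes included, 614 single-exon genes had medians of -0.00 in shTIP60, -0.05 in shCDK8, 0.10 in HIF1A-null and -0.05 in shNT cells, so the median in HIF1A-null cells changed sign with the class of gene.

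**Figure D2:**
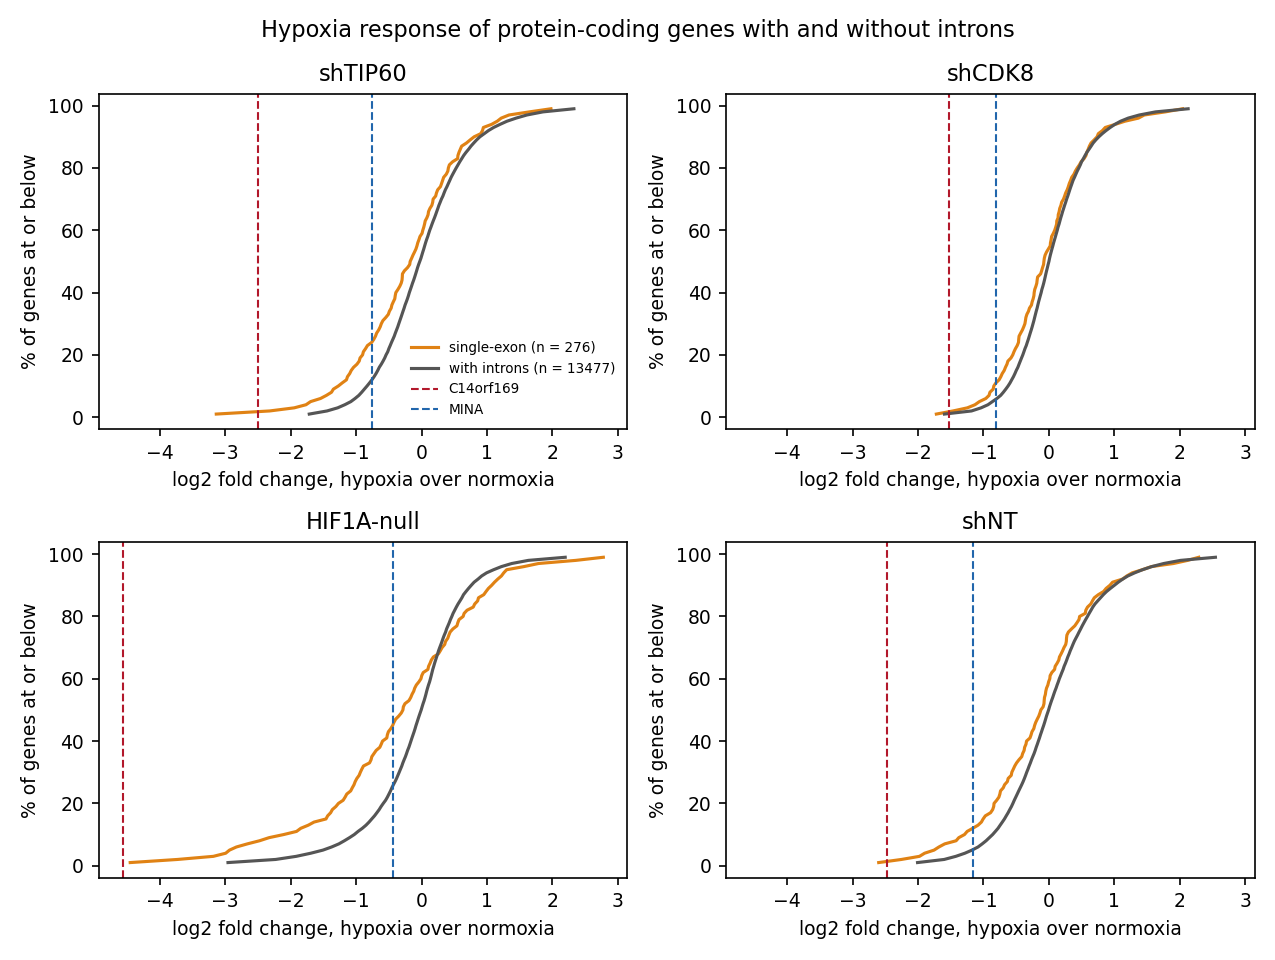
Cumulative share of protein-coding genes, in percent, by log2 fold change of hypoxia over normoxia in each line, between the 1st and 99th percentiles, for 276 single-exon genes and 13477 genes with introns; dashed lines mark C14orf169 and MINA. The C14orf169 line lies at the low end of both curves in shTIP60, shCDK8 and shNT cells, and its place in the HIF1A-null panel is the value it was chosen on. At the median the single-exon curve lies furthest left of the other in HIF1A-null cells (-0.29 and -0.01). The curves cross there, and at the 75th percentile the single-exon curve lies to the right (0.44 and 0.37).

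Other oxygenases that act on the translation machinery moved in the same direction as the 2 ribosomal oxygenases or were not called. This list held 6 genes. In shTIP60 cells 4 fell and 0 rose (median log2 fold change -0.81), in shCDK8 cells 3 fell and 0 rose (-0.61), in HIF1A-null cells 3 fell and 0 rose (-0.39), and in shNT cells 3 fell and 0 rose (-0.64). Of all genes tested, 19.8%, 11.0%, 19.1% and 20.0% were called lower in these lines, in the same order. OGFOD1, which hydroxylates a proline of the small-subunit protein RPS23, fell in every line, by 1.17 ± 0.12, 0.80 ± 0.12, 0.57 ± 0.12 and 1.11 ± 0.12 in that order of lines (edgeR adjusted p from 2.87e-06 to 0.00159). JMJD4, which hydroxylates the translation termination factor ETF1, fell in every line as well, by 1.32 ± 0.26, 1.17 ± 0.26, 1.59 ± 0.27 and 1.96 ± 0.28 (edgeR adjusted p from 4.49e-05 to 0.00415). OGFOD1 had 22.1 and 23.9 CPM in shTIP60 cells in hypoxia, against 52.3 and 51.3 CPM in normoxia. The groups of OGFOD1 did not overlap there, and 40.2% of all genes tested had their shTIP60 libraries apart in this direction. ALKBH8, a tRNA-modifying oxygenase, fell by 1.03 ± 0.18 in shTIP60, 0.89 ± 0.17 in shCDK8 and 0.85 ± 0.17 in shNT cells and stood at -0.29 ± 0.17 in HIF1A-null cells. ALKBH1, another tRNA-acting oxygenase, fell by 0.59 ± 0.16 in shTIP60 and 0.49 ± 0.17 in HIF1A-null cells and stood at -0.33 ± 0.16 in shCDK8 and -0.42 ± 0.17 in shNT cells. JMJD7, which acts on the GTPases DRG1 and DRG2, stood between -0.41 and 0.06 and the tRNA hydroxylase TYW5 between -0.41 and 0.05 over the lines, not called by edgeR. No member of the list rose at an unadjusted p below 0.05, or by DESeq2, in any line (0 of 6 in each).

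The other JmjC-fold hydroxylases, a list of 5 genes, included both directions. In shTIP60 cells 3 fell and 1 rose, as in shCDK8 and shNT cells, while 4 fell and 0 rose in HIF1A-null cells, with medians from -0.79 to -0.65 over the 4 lines. Among all genes 19.8% in shTIP60, 11.0% in shCDK8, 19.1% in HIF1A-null and 20.0% in shNT cells were called lower. Called higher were 19.4% in shTIP60, 13.8% in shCDK8 and 20.7% in shNT cells, so 1 of 5 that rose is near that share. HSPBAP1, a JmjC-domain protein that binds a small heat shock protein, fell in every line, by 1.48 ± 0.23 in shTIP60, 1.23 ± 0.22 in shCDK8, 1.19 ± 0.23 in HIF1A-null and 1.19 ± 0.23 in shNT cells. KDM8, a JmjC-domain hydroxylase, fell by 1.09 ± 0.24 in shTIP60, 0.79 ± 0.24 in shCDK8, 1.60 ± 0.27 in HIF1A-null and 0.71 ± 0.24 in shNT cells. JMJD8, a JmjC-domain protein of the endoplasmic reticulum, fell by 0.79 ± 0.19, 0.65 ± 0.19, 0.70 ± 0.19 and 0.76 ± 0.19 in the same lines. JMJD6, a lysyl hydroxylase of splicing factors, rose in shTIP60 (1.51 ± 0.18), shCDK8 (0.88 ± 0.18) and shNT cells (1.24 ± 0.18) and stood at 0.28 ± 0.18 in HIF1A-null cells. HIF1AN, the asparagine hydroxylase that acts on HIF1A, fell in HIF1A-null cells by 0.31 ± 0.11 (edgeR adjusted p = 0.0408) and was not called in the other lines, with no test between the lines. The list counts were smaller without single libraries: 2 of 5 were called in shCDK8 cells without normoxia library A or hypoxia library B, 2 in HIF1A-null cells without the same libraries of that line, and 2 in shNT cells without normoxia library A.

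**Figure D3:**
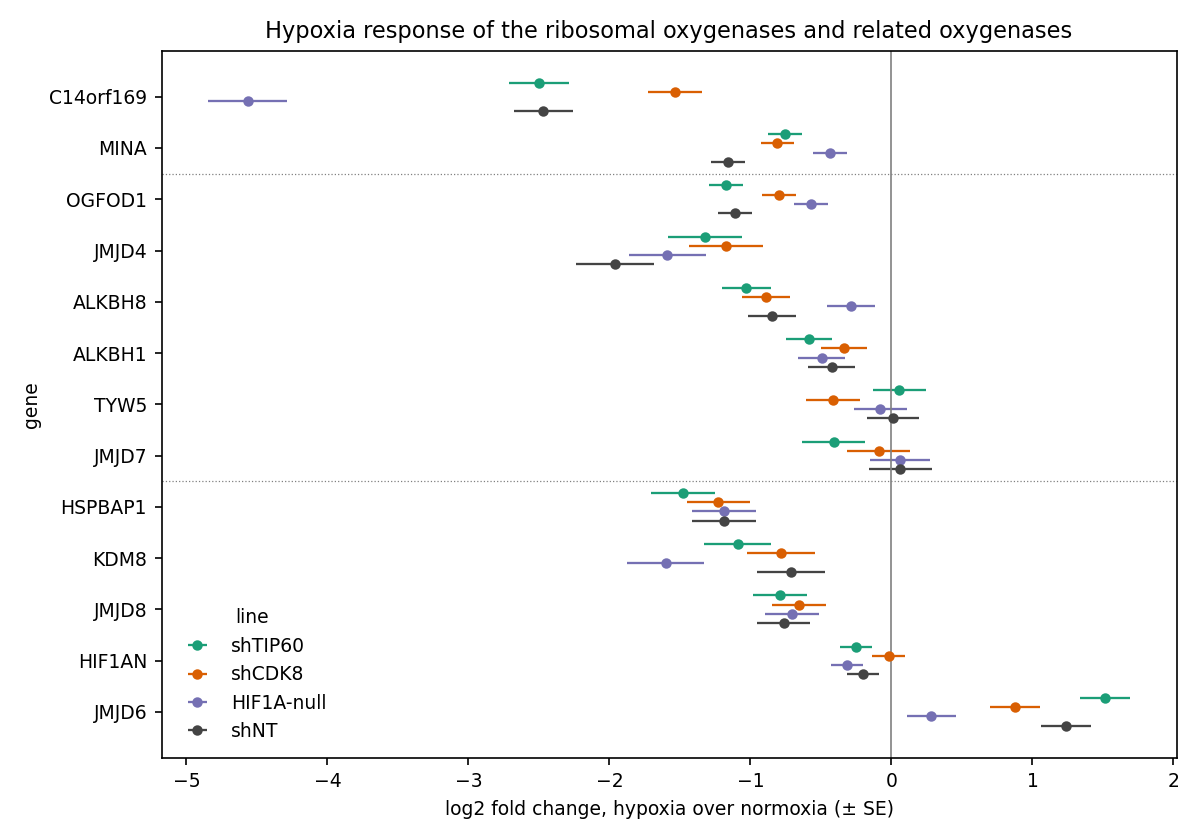
Log2 fold change of hypoxia over normoxia, with SE, of MINA, C14orf169 and the other oxygenases in each of the 4 lines. C14orf169 has the lowest value in shTIP60 (-2.50), shCDK8 (-1.53) and shNT cells (-2.47), its -4.57 in HIF1A-null cells is the value it was chosen on, and JMJD6 lies above 0 in every line.

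The 6 substrate genes of these enzymes moved in both directions or were not called: 1 rose and 2 fell in shTIP60 cells, 1 fell in shCDK8 cells, 1 rose in HIF1A-null cells and 1 fell in shNT cells. With 19.8% of all genes called lower in shTIP60, 11.0% in shCDK8, 19.1% in HIF1A-null and 20.0% in shNT cells, and 19.4% and 18.9% called higher in shTIP60 and HIF1A-null cells, 1 or 2 of 6 is not a result about the substrates. RPL27A, the substrate of MINA, stood at 0.29 ± 0.17 in shTIP60, -0.11 ± 0.17 in shCDK8, 0.18 ± 0.17 in HIF1A-null and 0.21 ± 0.17 in shNT cells, none called by edgeR. RPL8, the substrate of NO66, rose in shTIP60 cells by 0.37 ± 0.13 (edgeR adjusted p = 0.0346) and in HIF1A-null cells by 0.50 ± 0.13 (adjusted p = 0.00785), and stood at 0.18 ± 0.13 in shCDK8 and 0.31 ± 0.13 in shNT cells. ETF1 fell in shTIP60, shCDK8 and shNT cells, by 0.78 ± 0.13, 0.63 ± 0.13 and 0.94 ± 0.13. RPS23, the substrate of OGFOD1, stood between -0.25 and 0.12 over the lines and was not called. DRG1 fell in shTIP60 cells (0.47 ± 0.13), and DRG2 stood between -0.33 and -0.32 over the lines. In shTIP60 cells 1 of the 6 was called without normoxia library A or hypoxia library A, in shNT cells 3 without hypoxia library B, and in HIF1A-null cells 2 without hypoxia library A. Ribosomal protein genes have many near-identical pseudogene copies, so their counts are uncertain.

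Ribosome biogenesis genes, whose products work in the nucleolus where both enzymes are found, were lower in hypoxia for most of the list in shTIP60, shCDK8 and shNT cells and for a minority of it in HIF1A-null cells. Of 34, 26 fell and 0 rose in shTIP60 cells (median -0.68), 21 fell and 0 rose in shCDK8 cells (-0.55), 15 fell and 1 rose in HIF1A-null cells (-0.25), and 26 fell and 0 rose in shNT cells (-0.84). Among all genes tested 19.8%, 11.0%, 19.1% and 20.0% were called lower in the same order of lines. NIP7, a factor of large-subunit assembly, fell by 1.45 ± 0.13 in shTIP60, 1.22 ± 0.12 in shCDK8, 0.62 ± 0.12 in HIF1A-null and 1.74 ± 0.13 in shNT cells. NOP58, a core protein of box C/D small nucleolar ribonucleoproteins, fell by 1.08 ± 0.14, 1.00 ± 0.14, 1.06 ± 0.14 and 1.25 ± 0.14 in the same lines. LTV1, a factor of small-subunit assembly, fell by 1.56 ± 0.13, 1.27 ± 0.13, 0.57 ± 0.13 and 1.78 ± 0.14. PNO1, which also acts in small-subunit assembly, fell by 1.42 ± 0.15, 1.19 ± 0.15, 0.83 ± 0.15 and 1.43 ± 0.15. FBL, the methyltransferase of those particles, was the gene that rose in HIF1A-null cells (0.38 ± 0.14, named after its value was seen). NIP7, NOP58, LTV1 and PNO1 were named for their small adjusted p in shNT hypoxia, so they do not stand for the list. By DESeq2 0 of the list rose in shTIP60, shCDK8 and shNT cells, and at an unadjusted p below 0.05 in edgeR 0 rose in these lines. In shCDK8 cells 8 were called without hypoxia library B, and in HIF1A-null cells 10 without hypoxia library B.

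MYC, whose product is known to induce MINA, had more RNA in hypoxia where MINA had less. These data hold RNA and not protein, and a link between MYC and MINA was not tested. MYC rose by 0.56 ± 0.15 in shTIP60 (edgeR adjusted p = 0.00678), 0.80 ± 0.15 in shCDK8 (adjusted p = 0.00120), 0.53 ± 0.15 in HIF1A-null (adjusted p = 0.0111) and 0.63 ± 0.15 in shNT cells (adjusted p = 0.00329). Of 12 genes tested in the MYC and MAX network, 6 rose in shTIP60, 6 in shCDK8, 7 in HIF1A-null and 7 in shNT cells, while 2 fell in HIF1A-null cells, MAX and MYCL1, and 0 in the other lines by edgeR (at an unadjusted p below 0.05, 1 in shNT, 0 in shTIP60 and 0 in shCDK8 cells, the same counts that DESeq2 called). MAX and MYCL1 were named after their values were seen. Of all genes, 19.8%, 11.0%, 19.1% and 20.0% were called lower in these comparisons, in the same order of lines. The 2 of 12 that fell in HIF1A-null cells are near that share. The shares of all genes called higher were 19.4%, 13.8%, 18.9% and 20.7%. Those that rose included genes of proteins that compete with MYC for MAX: MXI1 rose by 2.41 ± 0.24, 1.95 ± 0.24, 1.35 ± 0.23 and 2.51 ± 0.24 in the order of lines above, and MXD1 rose by 2.46 ± 0.29, 2.08 ± 0.30, 3.97 ± 0.30 and 2.61 ± 0.30. MNT, the gene of another MAX partner that represses, rose by 1.90 ± 0.22, 1.75 ± 0.22, 2.05 ± 0.22 and 1.35 ± 0.21. MGA, of the same network, rose by 0.67 ± 0.14 in shTIP60, 0.44 ± 0.14 in HIF1A-null and 0.63 ± 0.14 in shNT cells and stood at 0.29 ± 0.14 in shCDK8 cells. MXI1, MXD1, MNT and MGA were named for their small adjusted p in shNT hypoxia, so they do not stand for the network. In shNT cells 4 of the network were called without normoxia library A.

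Of 14 known MYC targets tested, 7 fell in shTIP60, 4 in shCDK8, 1 in HIF1A-null and 8 in shNT cells, and 1 rose, in HIF1A-null cells. Of all genes, 19.8%, 11.0%, 19.1% and 20.0% were called lower in that order of lines, and 18.9% were called higher in HIF1A-null cells, where 1 of 14 in either direction is not a result about the list. There TFRC, the transferrin receptor gene, was the target that fell (1.17 ± 0.16) and PRMT1, an arginine methyltransferase gene, the one that rose (0.49 ± 0.15, named after its value was seen). TFRC fell by 1.35 ± 0.16 in shNT cells and stood at -0.22 ± 0.16 in shTIP60 and 0.42 ± 0.16 in shCDK8 cells. ODC1, the first enzyme of polyamine synthesis, fell by 0.99 ± 0.18 in shTIP60 and 1.22 ± 0.18 in shNT cells, and stood at -0.42 ± 0.18 in shCDK8 and 0.12 ± 0.18 in HIF1A-null cells. SRM, spermidine synthase, fell by 1.01 ± 0.28 in shTIP60 and 1.20 ± 0.28 in shNT cells, and stood at -0.42 ± 0.28 and -0.29 ± 0.28 in shCDK8 and HIF1A-null cells. The medians of these targets were -0.40 in shTIP60, -0.29 in shCDK8, 0.16 in HIF1A-null and -0.53 in shNT cells. CDK4, a cell-cycle kinase gene, fell in shTIP60 (0.56 ± 0.14), shCDK8 (0.43 ± 0.14) and shNT cells (0.59 ± 0.14). TFRC, ODC1, SRM and CDK4 were named for their small adjusted p in shNT hypoxia, so they do not stand for the list. The target counts in shTIP60 cells were 2 to 4 with any 1 library left out, and in shCDK8 cells 0 without normoxia library B or hypoxia library A and 1 without hypoxia library B. EIF4A1, on the list of targets, is listed at 0 in every library and was not tested.

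Of the chromatin partners of NO66, 4 of 5 were tested: 3 fell in shTIP60, 1 in shCDK8, 1 in HIF1A-null and 3 in shNT cells. Of all genes, 19.8%, 11.0%, 19.1% and 20.0% were called lower in that order of lines, so 1 of 4 in shCDK8 and HIF1A-null cells is not a result about these partners. In each line 0 rose, by edgeR, by DESeq2 and at an unadjusted p below 0.05. PHF19 itself was not called by edgeR, at -0.26 ± 0.16 in shTIP60, 0.17 ± 0.16 in shCDK8, 0.23 ± 0.16 in HIF1A-null and -0.10 ± 0.16 in shNT cells. EED and SUZ12, core subunits of Polycomb repressive complex, were at -0.64 ± 0.13 and -0.66 ± 0.14 in shTIP60 cells and at -0.62 ± 0.13 and -0.66 ± 0.14 in shNT cells, all of them called. EZH2, the methyltransferase of that complex, fell by 0.66 ± 0.15 in shTIP60 and 0.52 ± 0.15 in shNT cells, and stood at -0.12 ± 0.15 in shCDK8 and 0.25 ± 0.15 in HIF1A-null cells. The 1 call in shCDK8 cells, SUZ12, was lost without normoxia library B, hypoxia library A or hypoxia library B, and in HIF1A-null cells 3 were called without normoxia library A.

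Candidates for likeness were 5792 genes with a mean of at least 5 CPM and a range of at least 1 on the log2 scale. Of these, symbols that start with LOC or LINC, contain orf or look like accessions were left out before ranking. The genes whose pattern over the 8 group means was most like that of each member were then picked by Pearson's r. For MINA they were BCS1L, a mitochondrial complex III assembly factor (r = 0.996), NDUFAF6 (0.989), G3BP1, a stress granule protein (0.989), BDH1, a ketone body enzyme (0.988), and SENP3, a nucleolar SUMO protease (0.987). Over the 16 libraries the order changed, and 2 of these, NDUFAF6 and G3BP1, were again among the first 5. OGFOD1 ranked 4 over libraries (r = 0.966) and 26 over group means (0.969). For C14orf169, 4 of the first 5 were ELAC1, a tRNA 3' processing endonuclease (0.990), TIGD2 (0.988), PRDM4 (0.988) and ZNF48 (0.987), and 0 of these were among the first 5 over libraries. The points share lines and conditions, so these r values only describe likeness.

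**Figure D4:**
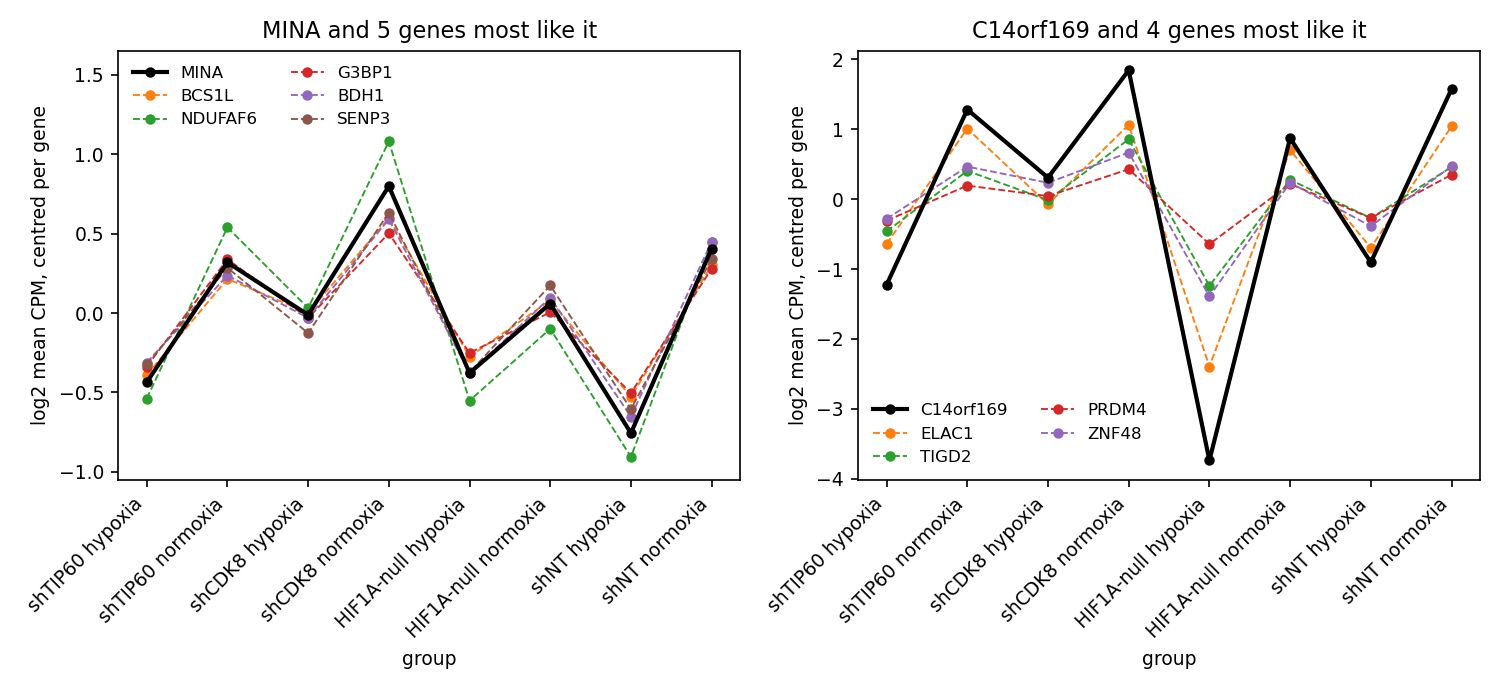
Log2 of the mean CPM of each group, centred on each gene's own mean over the 8 groups, for MINA with the 5 genes most like it and for C14orf169 with 4 of its first 5. MINA's companions keep a similar span, while C14orf169 lies lower than its companions in HIF1A-null hypoxia, the libraries it was chosen on, at a mean of 0.239 CPM.

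Among the tested neighbours of the 2 genes on their chromosomes, NUMB, 32315 bases before C14orf169, went the other way: it rose in each line, by 0.46 ± 0.14 in shTIP60, 0.66 ± 0.14 in shCDK8, 0.45 ± 0.14 in HIF1A-null and 0.48 ± 0.14 in shNT cells. DNAL1, 151480 bases after it, stood between -0.40 and -0.02 and was not called by edgeR. ARL6, 140589 bases before MINA, fell in HIF1A-null cells by 1.17 ± 0.30 (edgeR adjusted p = 0.00561) and was not called in the other lines. Of all genes tested, 19.4% in shTIP60, 13.8% in shCDK8, 18.9% in HIF1A-null and 20.7% in shNT cells were called higher. In HIF1A-null cells 19.1% were called lower, so a call in a neighbour is common.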

How the data were processed

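Poly(A) RNA of 16 libraries was sequenced on an Ion Torrent Proton, per the labels' protocols. The authors deposited read counts per gene symbol, which are whole numbers with a different total in each library. The submitters' processing notes name GSNAP, HTSeq 0.5.4p5 and DESeq 1.14.0 on build hg19 (GRCh37). The strand setting and gene annotation of the counting are not given in the sources used here. Column names gave the group of a library but no replicate number, so libraries are called A and B by the 2 series of library numbers in those names. Replicate differences had 8.56 to 64.8 times the variance of counting error.

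Tests on counts used edgeR 4.0.16 (R 4.3.3). The filter on low counts by group (minimum count 10, minimum total 15) kept 65.6% of genes. A robust quasi-likelihood model had 1 coefficient for each group, TMM scaling and all 16 libraries, which left 8 residual degrees of freedom. Its common coefficient of biological variation was 0.132. The SE of a log2 fold change was its absolute size over the square root of the F statistic of its test. At very low counts this SE can be smaller than counting error. The tests were two-sided, with Benjamini-Hochberg adjustment over all 15520 genes tested, with a threshold of 0.05. CPM use TMM factors; intervals and the floor of 3 counts cover counting error only. Of the table's genes, 91.8% matched GENCODE release 44 lifted to GRCh37, by current or older symbol.

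The members, the gene lists and the tests were chosen with earlier results of these data known, so a pattern already seen there is no independent support. Named were both members, the targeted genes, every detected gene of the 4 lists of oxygenases, substrates and partners, MYC and up to 4 genes with the smallest adjusted p in shNT hypoxia from each of the other lists, overlapping and neighbouring genes, and the 5 genes most like each member, of which 1 is not reported here. Alternatives were RLE size factors, library totals, 2 other filters, DESeq2 1.42.0, a fit restricted to the groups compared, a block of the library number series and leaving out each library. The block and the restriction of single-exon genes to protein-coding ones were added after seeing the data.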

Additional observations from a re-analysis of the deposited data

How the results depend on the processing

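Of 400 values of MINA and C14orf169 under an alternative, 389 stayed on their side of the threshold or, for descriptions, within their error, 9 descriptions moved by more than their error and 2 calls were lost. This error was the SE, or for differences of responses the SE over the square root of 2. Some differences counted as moved therefore lie within the SE printed above. The other sign was met in 5 values, all of 2 uncalled differences of responses near 0: without 1 library C14orf169 in shTIP60 minus shNT was -0.23 to 0.17, and MINA in shCDK8 minus shTIP60 was -0.14 to 0.03. The call of MINA in HIF1A-null cells in hypoxia was lost in a fit of only the groups compared (-0.44, edgeR adjusted p = 0.127), which has fewer samples, and leaving out 1 library gave -0.51 to -0.37. With library totals, MINA in hypoxia stood at -1.36 in shNT cells and at 0.24 for HIF1A-null against shNT, where the median of all genes moved too. Leaving out 1 library gave C14orf169 -4.94 to -4.30 for hypoxia in HIF1A-null cells, -3.17 to -2.53 for HIF1A-null against shNT in hypoxia, and for the difference of responses -2.47 to -1.83 against shNT, -2.44 to -1.80 against shTIP60 and -3.41 to -2.77 against shCDK8. Low C14orf169 counts there limit its precision. C14orf169 in shCDK8 minus shNT responses had adjusted p from 0.0730 to 0.292 over the alternatives with all libraries.

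Counts of called genes per list moved as follows, as genes called in either direction in hypoxia. With library totals, substrates had 3 in shNT, 2 in shCDK8 and 3 in HIF1A-null cells, translation oxygenases 5 in shCDK8, and chromatin partners 2 in shCDK8 and 2 in HIF1A-null. With no filter except 1 count, MYC targets had 7 in shCDK8. With a mean of at least 5 CPM, and with DESeq2, substrates had 2 in shNT. With only the groups compared, shTIP60 had 5 substrates and 11 MYC targets, and HIF1A-null had 1 translation oxygenase, 0 substrates, 9 ribosome biogenesis genes, 4 of the MYC network, 1 MYC target and 0 partners. Leaving out 1 library gave other JmjC hydroxylases 2 to 4 in shNT, 2 to 4 in shCDK8 and 2 to 3 in HIF1A-null, the MYC network 4 to 8 in shNT, substrates 1 to 3 in shNT, 1 to 2 in shTIP60 and 1 to 2 in HIF1A-null, MYC targets 2 to 4 in shTIP60 and 0 to 3 in shCDK8, partners 0 to 1 in shCDK8 and 1 to 3 in HIF1A-null, and ribosome biogenesis 8 to 19 in shCDK8 and 10 to 18 in HIF1A-null. Where no construction explains a move, the cause was not tested. Restricting single-exon genes to protein-coding ones moved their median to -0.17 in shTIP60 and -0.29 in HIF1A-null cells, and likeness over 16 libraries kept 2 of 5 genes for MINA and 0 for C14orf169.

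The replicate numbers of the labels could not be matched to columns, so a block was built from the library number series. Correlations of library differences were positive in all 28 pairs of groups, from 0.03 to 0.34 with a median of 0.12. Of these, 18 were over 0.1. The main model had no term for the series, and whether the series pairs the samples was not tested. With this replicate block MINA in HIF1A-null cells stood at -0.44 (adjusted p = 0.00298), no call of either gene changed, and the called counts became 3 substrates in shNT, 2 in shCDK8 and 2 in HIF1A-null, and 5 MYC targets and 2 partners in HIF1A-null.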
